A study of Homo sapiens with 12 samples.

Results

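All-trans retinoic acid (ATRA) was given on top of decitabine (DAC) to U937, an established myelomonocytic leukemia cell line, and the RNA of these cells was compared with that of cells given DAC without ATRA. The compared libraries were chosen by their column names, the 3 columns that end in DAC_ATRA against the 3 that end in DAC, and they are 6 of the 12 libraries of the series. According to the labels, the DAC group received 200 nM decitabine for 72 h and the DAC + ATRA group received the same with 1 µM ATRA. For part of the results a second ATRA response is set beside the first, that of the 3 ATRA libraries (1 µM, 72 h) against the 3 untreated ones, which the labels place at 96 h, so hours and treatment cannot be told apart in it if the labels hold; the article gives 72 h for all groups. The labels describe a medium with 20% fetal calf serum and 5 ng/ml GM-CSF for all groups and fresh DAC each day, while the article's methods describe another medium and a later start of ATRA than of DAC. How long the cells had ATRA therefore cannot be settled from the files. The series design calls the replicates technical triplicates of 1 cell line, so every p-value below measures only the spread between these libraries. The question of the comparison is which transcripts still respond to ATRA once the cells have been exposed to a drug that lowers DNA methylation.

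Retinoic acid enters the cell and binds nuclear receptors, the retinoic acid receptors, which sit with their partner retinoid X receptors on short repeated DNA elements near their target genes. Without ligand the pair holds corepressors, and with ligand it exchanges them for coactivators, so that genes such as the retinoic acid hydroxylase CYP26A1 are transcribed and in turn remove the ligand. In myeloid leukemia cells ATRA is known for driving granulocyte and monocyte differentiation, and decitabine, a cytosine analogue that traps DNA methyltransferases, is known for reactivating genes silenced by methylation.

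Values are normalized read counts per transcript, and a gene is represented by its most abundant protein-coding transcript. Total reads were 9456661, 10157241 and 9583119 in the DAC libraries (numbered 4, 5 and 6 here) and 10683593, 9935892 and 8042435 in the DAC + ATRA libraries (10, 11 and 12). At these depths 3 reads correspond to a normalized count of 2.71 to 3.71, so lower values rest on a few reads, and intervals and floors given below cover counting error only. Mitochondrial transcripts held 37.0% to 40.4% of the reads in DAC and 36.3% to 38.3% in DAC + ATRA.

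The cell line label was compared with 10 myeloid markers. Of these, 5 had enough reads to be tested (SPI1, ITGB2, CD4, LYZ and MPO), while CD33, CSF2RA, CD68, FCER1G and TYROBP were at or near 0 in this transcript-level table. The summed normalized count of the 10 was 38307, 24721 and 32427 in DAC and 20826, 21240 and 19953 in DAC + ATRA, and most of it was MPO, the myeloperoxidase of primary granules. MPO alone stood at 32489, 20141 and 27361 in DAC and at 15267, 15452 and 14199 in DAC + ATRA. Every DAC + ATRA library lay below every DAC library, and MPO was the only one of the 5 past the test, with a log2 difference of -0.81. It missed the threshold with no filter on low values (adjusted p 0.0360). Because these are bulk samples, fewer cells with a transcript and less of it per cell cannot be told apart. Among the markers of other lineages chosen for this check, CD3D, CD3E, MS4A1 and PF4 were at or near 0, and the chosen erythroid markers had no reads. The B-lineage factor PAX5 was at 342 to 413 in DAC and 340 to 387 in DAC + ATRA. The platelet integrin ITGA2B was at 131 to 141 and 101 to 105. Lymphoid and platelet genes outside this choice, CD79A, CD2 and GP9, were clearly expressed in DAC and are described below.

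Of 9016 tested protein-coding transcripts, 1022 (11.3%) passed an adjusted p of 0.01 in limma, 548 higher (6.08%) and 474 lower (5.26%) with ATRA on top of DAC. Counted by gene symbol, 951 of 7620 (12.5%) passed, 493 higher (6.47%) and 458 lower (6.01%), and 2312 (30.3%) had an unadjusted p under 0.05. The rises were larger than the falls: the median log2 difference was 1.30 among the transcripts that rose and -0.82 among those that fell, and of the 520 with a change of at least 1 on the log2 scale, 344 rose and 176 fell. The smallest change that passed was 0.33. Across all tested symbols the median was -0.05, which other scalings of the libraries moved between -0.07 and 0.01, so a list median this close to 0 has no firm sign. Which direction held the majority also depended on the processing, since 58.8% of the calls were higher with edgeR's TMM scaling and 47.3% with libraries scaled to total reads. Single libraries moved the split as well. Without DAC + ATRA library 10 the calls were 463 higher and 288 lower, and without ATRA library 9 they were 622 and 633. In 3162 transcripts (35.1%), or 2828 symbols (37.1%), the 3 libraries of one group lay entirely beyond the 3 of the other. An exact two-sided permutation test of 3 libraries against 3 gives no p below 0.1, so separation of this kind is a description.

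The largest change was that of CYP26A1, which hydroxylates retinoic acid and clears it. Its normalized counts were 0, 1.95 and 0 in DAC and 516, 604 and 437 in DAC + ATRA. The DAC libraries held 2 reads together, the DAC + ATRA libraries 1499, a ratio of 773 with a 95% exact Clopper-Pearson counting interval of 214 to 6390, and the log2 difference was 8.49 (adjusted p 1.04e-10). A second CYP26A1 transcript, outside the protein-coding set, went from 0 in all 3 DAC libraries to 49.7, 42.1 and 55.6. The third largest change belonged to ARL14EPL, a gene related by name to an effector of the small GTPase ARL14, with 0 in each DAC library and 51.5, 67.4 and 65.5 in DAC + ATRA, at least 59.8-fold by a floor of 3 reads over the group. Retinoic acid receptors bind direct repeats of a 6-base element, so the promoters were searched for the half-site AGGTCA, with GGGTCA as a first variant, AGTTCA as another and GGTTCA as the last, repeated with a spacer of 5, 2 or 1 bases, on both strands. The windows span 300 bases, 250 before the annotated start and 50 from the start on. A repeat with the spacer of 5 occurred in 3 of 7443 windows (0.0403%), of which 2 were among the 480 of genes that rose (0.417%) and 0 among the 449 of genes that fell. The windows of CYP26A1 (hg38, plus strand, chr10:93073643-93073942), which carries it on the opposite strand, and of ATXN1L (plus strand, chr16:71845726-71846025), which carries it on the printed one, are shown as 1 of the 2 that rose and the 1 that did not pass. Capitals mark the half-sites.
CYP26A1: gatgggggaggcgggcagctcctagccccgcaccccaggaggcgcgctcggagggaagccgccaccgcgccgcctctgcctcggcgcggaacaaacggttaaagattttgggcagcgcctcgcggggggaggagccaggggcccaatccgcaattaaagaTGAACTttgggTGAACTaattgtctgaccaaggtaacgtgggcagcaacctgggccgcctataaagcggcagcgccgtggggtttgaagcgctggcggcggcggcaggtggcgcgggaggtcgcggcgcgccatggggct
ATXN1L: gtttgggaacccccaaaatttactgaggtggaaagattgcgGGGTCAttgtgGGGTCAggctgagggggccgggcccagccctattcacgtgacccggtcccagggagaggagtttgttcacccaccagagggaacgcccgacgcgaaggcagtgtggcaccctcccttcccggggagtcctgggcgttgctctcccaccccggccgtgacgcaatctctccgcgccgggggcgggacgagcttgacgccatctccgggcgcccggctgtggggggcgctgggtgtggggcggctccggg
CYP26A1 had the largest rise of all, while ATXN1L, a transcriptional corepressor chosen for mention after its values were seen, did not pass (log2 difference 0.06, adjusted p 0.761). With any of the 3 spacers the repeats occurred in 23 windows (0.309%), in 5 of the 480 of genes that rose (1.04%) and in 0 of the 449 of genes that fell. Those with a shorter spacer, also named after their values were seen, were KLF18 (log2 difference 3.61) and SKIL (1.03) with a spacer of 2 and RIT1 (0.53) with a spacer of 1. A match describes these letters only, and a window without one says nothing about elements elsewhere.

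Retinoic acid target genes known from the literature were set beside all symbols. This list, like the others, was chosen with earlier results of these data known, so its share is a description. Of 15 tested, 13 rose and 0 fell (86.7% called, against 12.5% of all symbols), with a median log2 difference of 2.46 against -0.05 over all symbols. HIC1, a transcriptional repressor, went from 8.65, 6.82 and 8.96 to 533, 623 and 596 (log2 difference 6.0). CD38, a surface enzyme that consumes NAD, went from 365, 295 and 257 to 7167, 7608 and 8075 (4.65), and thrombomodulin (THBD), an endothelial and monocyte surface protein of the coagulation system, from 957, 1308 and 1234 to 20898, 25738 and 22830 (4.32). The smallest changes of the list were TNFAIP2 (1.00), STRA8 (0.89), the myeloid adaptor PRAM1 (0.81) and the granulocyte transcription factor CEBPE (0.18). TNFAIP2 missed the threshold without DAC library 4 or 5 or DAC + ATRA library 10 or 11, with an adjusted p of at most 0.0206. STRA8 and CEBPE did not pass, though STRA8 did with edgeR's TMM scaling (adjusted p 0.00330). CEBPE counts were 1513, 1297 and 1682 in DAC and 1606, 1856 and 1618 in DAC + ATRA, overlapping groups.

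Of the genes that make, carry or remove retinoids, 3 of 8 tested rose and 0 fell (37.5% called, against 12.5% of all symbols), with a median of 0.14. Beside CYP26A1 these were the retinaldehyde reductase DHRS3, which turns retinaldehyde back into retinol, and the related DHRS9. DHRS3 stood at 517, 375 and 394 in DAC and at 4987, 5800 and 5465 in DAC + ATRA (log2 difference 3.67, adjusted p 2.08e-14). DHRS9 was near the detection limit, with 5.40, 6.82 and 3.98 against 11.8, 13.7 and 14.8, and it lost its call in DESeq2, in edgeR, with no filter on low values, without the untreated and ATRA groups in the fit, and without any 1 of DAC libraries 4 and 6 and the 3 DAC + ATRA libraries (adjusted p up to 0.0532, with DESeq2). The retinaldehyde dehydrogenase ALDH1A1, which makes retinoic acid, was lower in all 3 libraries without passing (log2 difference -0.58, adjusted p 0.0537), and passed only when DAC and DAC + ATRA were fitted without the other groups (0.00705). Among the receptors, coactivators and corepressors 2 of 10 tested rose and 0 fell (20% called), with a median of 0.14. With edgeR's TMM scaling 3 rose and 0 fell, and 2 rose and 1 fell both with DESeq2 and with libraries scaled to total reads. PML (1.08, adjusted p 0.0122) did not pass in limma but did with edgeR's TMM scaling (0.00363). The receptor RARA went from 291, 298 and 340 to 526, 573 and 526 (0.81), and the coactivator NCOA3 from 249, 312 and 238 to 615, 585 and 654 (1.22), both without overlap. The corepressor SIN3A (-0.40) and the mediator subunit MED1 (0.00) did not pass.

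**Figure D1:**
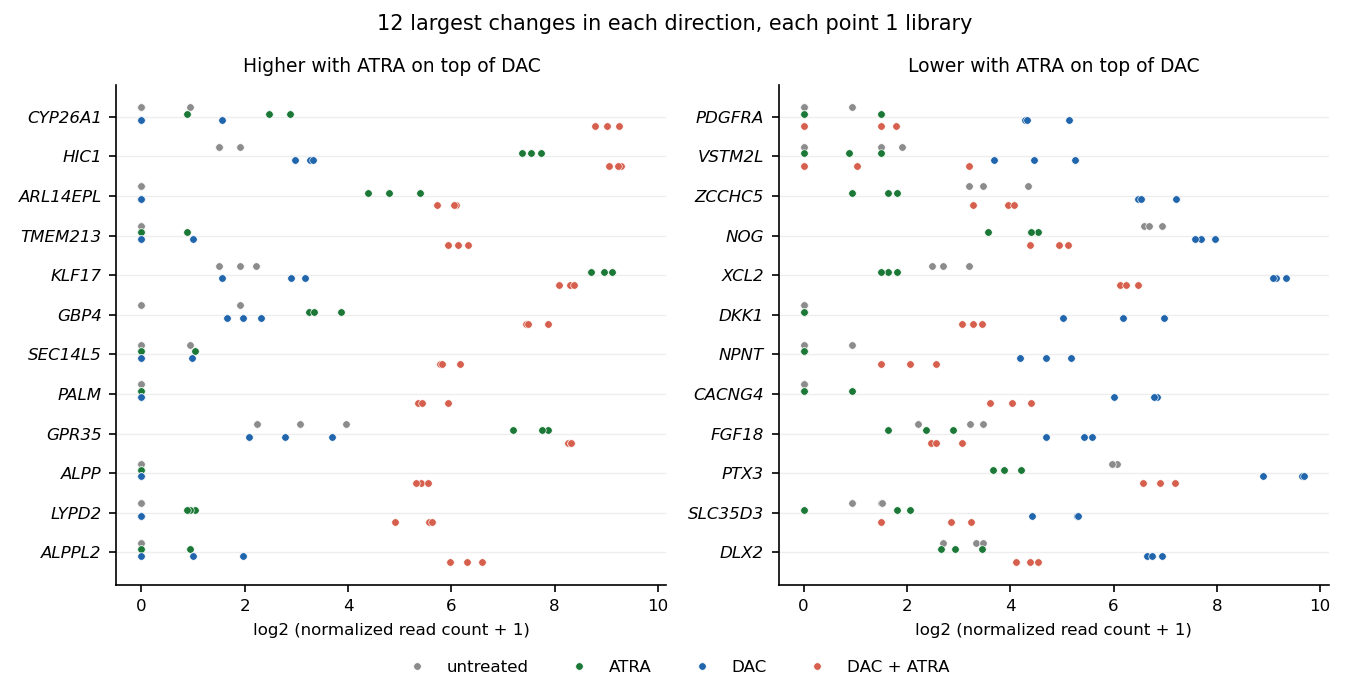
Values of the 12 genes with the largest rise (left) and the 12 with the largest fall (right) among those past the test with a mean of at least 1 RPM (reads scaled by depth) and no overlap between DAC and DAC + ATRA, so that their separation follows from the choice, as log2 of the normalized read count + 1 on the horizontal axis, each point 1 library of the untreated, ATRA, DAC or DAC + ATRA group. CYP26A1 lies at 0 to 1.95 normalized reads in DAC and at 437 to 604 in DAC + ATRA.

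Several of the largest rises started from no or almost no reads. PALM, which encodes a plasma membrane protein, had 0 in each DAC library and 39.8, 42.1 and 60.6 in DAC + ATRA, at least 45.7-fold. ALPP, a placental alkaline phosphatase, went from 0 to 41.6, 38.9 and 45.7, at least 41.3-fold, and LYPD2 from 0 to 28.9, 46.3 and 48.2, at least 39.5-fold. ALPP and its neighbour ALPPL2 (log2 difference 5.30) are close paralogs, and how reads that fit both were counted is not stated. For TMEM213 (0, 0 and 0.996 against 60.6, 69.5 and 79.1) and SEC14L5 (0, 0.974 and 0 against 54.2, 55.8 and 70.4) the single read in DAC leaves wide counting intervals, a ratio of 203 from 36.1 to 8067 and of 175 from 31.1 to 6967. The log2 difference of such genes depends on the 1 added before the logarithm. KLF17, a zinc finger transcription factor of the early embryo, went from 6.49, 1.95 and 7.97 to 272, 313 and 331 (5.71), and the G protein-coupled receptor GPR35 from 3.24, 5.85 and 12 to 307, 319 and 319 (5.45).

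Interferon-stimulated genes, the antiviral effectors switched on by interferon receptors, had 35 tested members. Of these, 16 rose and 0 fell in limma (45.7% called, against 12.5% of all symbols), 19 did not pass, the median log2 difference was 0.85, and 26 (74.3%, against 30.3% of all symbols) had an unadjusted p under 0.05. With DESeq2 20 rose and 2 fell, and with edgeR's TMM scaling 20 rose and 0 fell. GBP4, a guanylate-binding GTPase, went from 2.16, 2.92 and 3.98 to 174, 179 and 235 (5.62). OAS1, which makes the oligoadenylate activator of RNase L, went from 142, 155 and 144 to 778, 767 and 895 (2.46). GBP5, a guanylate-binding protein linked to inflammasomes, went from 412, 391 and 411 to 1252, 1247 and 1267 (1.63). All libraries with ATRA were higher in these 3 genes, and the replicates of GBP5 lay closer together than those of the others. GBP1 followed at lower counts (4.32, 12.7 and 2.99 against 38.0, 40.0 and 60.6; log2 difference 2.80), and reads shared among guanylate-binding paralogs are an uncertainty for all of them. At the other end of the list, MX2 (-0.05) and HERC5 (-0.06) did not pass, and USP18, which removes ISG15 and dampens interferon receptor signalling, was lower in all 3 libraries with ATRA, at 1552, 1443 and 1490 against 1069, 1308 and 1202, without passing in limma (-0.33, adjusted p 0.0318). The tetherin gene BST2 did the same (-0.38, adjusted p 0.0251). Without ATRA library 9, whose spread enters the shared variance, both passed, USP18 with an adjusted p of 0.00644 and BST2 with 0.00365, and with DESeq2 they passed as well (0.00249 and 0.00549).

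The element to which interferon-activated complexes bind has GAAA repeated 2 bases apart as its core, so GAAANNGAAA was searched on both strands in the same windows. It occurred in 232 of 7443 windows (3.12%), in 36 of 480 of genes that rose (7.50%) and in 11 of 449 of genes that fell (2.45%). Within the interferon-stimulated list it was in 22 of 34 windows (64.7%), in 10 of the 16 genes that rose (62.5%) and in 12 of the 18 that did not pass (66.7%). The windows of GBP4 (hg38, minus strand, chr1:89198893-89199192) and OAS3 (plus strand, chr12:112938224-112938523) are printed because both hold the pair, marked in capitals as GAAA or as its complement TTTC, and both genes rose.
GBP4: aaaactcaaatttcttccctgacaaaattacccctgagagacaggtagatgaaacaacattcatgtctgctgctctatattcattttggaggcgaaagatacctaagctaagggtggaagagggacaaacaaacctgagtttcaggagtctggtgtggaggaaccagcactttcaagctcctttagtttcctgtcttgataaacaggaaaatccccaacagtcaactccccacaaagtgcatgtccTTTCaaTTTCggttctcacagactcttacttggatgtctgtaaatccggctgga
OAS3: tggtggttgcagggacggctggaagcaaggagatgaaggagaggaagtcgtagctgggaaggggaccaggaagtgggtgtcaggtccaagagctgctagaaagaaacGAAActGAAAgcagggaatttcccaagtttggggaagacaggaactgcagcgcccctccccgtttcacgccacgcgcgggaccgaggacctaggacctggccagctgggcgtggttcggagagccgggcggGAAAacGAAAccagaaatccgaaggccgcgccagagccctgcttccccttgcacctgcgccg
OAS3 rose by 1.42 on the log2 scale and GBP4 by 5.62. DTX3L and PARP9, which lie head to head, share the same pair at their starts (chr3:122564332-122564341), and both rose, by 0.85 and 0.81.

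Of 18 tested genes of a list of interferon signalling and RNA sensing, which also holds ERV3-1 and ZNF117, 7 rose (38.9% called, against 12.5% of all symbols), these 2 among them, and 0 fell, with a median of 0.36 against -0.05 over all symbols. IRF1, a transcription factor that acts on interferon-stimulated and antigen presentation genes, went from 111, 132 and 132 to 604, 746 and 733 (2.46). It also counts among the retinoic acid targets above. IFIH1, the sensor of long double-stranded RNA, went from 336, 308 and 283 to 464, 566 and 612 (0.82), and the feedback inhibitor SOCS3 from 289, 300 and 287 to 453, 549 and 500 (0.77). All 3 genes were without overlap between the groups. The other cytosolic sensor, DDX58, stood at 16.2, 20.5 and 27.9 against 25.3, 32.6 and 23.5 and its adaptor MAVS at 38.9, 29.2 and 42.8 against 33.5, 40.0 and 39.5, both overlapping and short of the threshold (0.34 and 0.04). The sign of the MAVS difference changed without DAC library 5 (-0.12) and without DAC + ATRA library 11 (-0.01). The retroviral envelope gene ERV3-1, which lies beside the zinc finger gene ZNF117, went from 3578, 4230 and 4069 to 5462, 5657 and 5803 (0.51), and ZNF117 from 568, 706 and 633 to 980, 977 and 959 (0.62). Both rose without overlap between the groups.

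In antigen presentation by class II molecules 3 of 5 tested genes rose and 0 fell (60% called, against 12.5% of all symbols), with a median of 0.93. CIITA, the master activator of class II genes, went from 22.7, 21.4 and 24.9 to 53.3, 70.5 and 69.2 (1.44), and missed the threshold without DAC + ATRA library 11 or 12 (adjusted p at most 0.0150). The costimulatory ligand CD80 went from 2.16, 3.90 and 1.99 to 16.3, 14.7 and 18.5 (2.28) and cathepsin S (CTSS), which trims the invariant chain, from 891, 892 and 756 to 1450, 1623 and 1772 (0.93). The class II chains HLA-DRB5 (0.21) and HLA-DRB1 (-0.15) did not pass, and reads shared between HLA paralogs make both uncertain. For class I, 2 of 9 tested rose and 0 fell (22.2% called), with a median of 0.39. These were the peptide-trimming aminopeptidases ERAP2 (136, 118 and 112 against 247, 231 and 290; log2 difference 1.06) and ERAP1 (345, 420 and 321 against 509, 498 and 518; 0.50). ERAP1 lost its call with no filter on low values (adjusted p 0.0162) and without any 1 of 5 libraries (DAC 4 and 6, DAC + ATRA 10, 11 and 12), with an adjusted p of up to 0.0349. B2M, the light chain of class I molecules, was higher without overlap at very low counts in this table, 8.65, 11.7 and 6.97 against 15.4, 24.2 and 23.5, and just missed the threshold (1.12, adjusted p 0.0101).

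Myeloid surface receptors moved in both directions. Of 26 tested, 8 rose and 4 fell (46.2% called, against 12.5% of all symbols), with a median of 0.31. The integrin chain ITGAM (CD11b), the customary surface marker of myeloid differentiation, went from 874, 843 and 852 to 2799, 2778 and 2599 (1.67). The chemokine receptor CCR1 went from 1110, 935 and 1042 to 3756, 3965 and 4084 (1.94), and the interleukin 8 receptor CXCR1 from 3.24, 7.79 and 5.98 to 57.9, 69.5 and 55.6 (3.27). In each all 3 libraries with ATRA were higher. Falling were the aminopeptidase ANPEP (CD13), from 196, 183 and 241 to 101, 112 and 95.2 (-1.0), and the Fc receptors FCGR1A (-0.81) and FCGR2A (-0.57). FCGR1A missed the threshold without DAC library 4 or DAC + ATRA library 10 (adjusted p at most 0.0125). The interleukin 7 receptor IL7R was lower without overlap, at 1879, 2113 and 1722 against 1251, 1319 and 1395, and narrowly did not pass (-0.52, adjusted p 0.0111). It passed without untreated library 1 or any 1 ATRA library, with an adjusted p down to 0.00490, and with DESeq2 (0.000290) and edgeR's TMM scaling (0.00298). In the phagocyte oxidase, the enzyme that makes superoxide, 2 of 5 tested genes rose and 0 fell (40% called), with a median of 0.19. The membrane subunit CYBB went from 3502, 2744 and 2732 to 4489, 4522 and 4580 (0.61), and the cytosolic subunit NCF1, which has near-identical pseudogenes, from 2.16, 1.95 and 1.99 to 15.4, 15.8 and 17.3 (2.50).

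Granule proteins split by gene. Of 11 tested, 2 rose and 4 fell in limma (54.5% called, against 12.5% of all symbols), with a median of -0.15, and 4 rose and 5 fell both with DESeq2 and with edgeR's TMM scaling. S100A9, a calcium-binding protein of neutrophils and monocytes, went from 929, 1183 and 1156 to 4816, 5269 and 5622 (2.27), and BPI, which binds bacterial lipopolysaccharide, from 7.57, 17.5 and 9.96 to 88.6, 89.5 and 106 (2.99). Those that fell were MPO, the eosinophil ribonucleases RNASE2 and RNASE3 and the protease inhibitor CST7 (cystatin F). RNASE2 went from 3966, 2541 and 2994 to 1571, 1676 and 1387 (-1.02) and CST7 from 1013, 757 and 814 to 243, 233 and 206 (-1.91). All libraries with ATRA were lower in each of the 4. Lysozyme (LYZ) was higher in every library with ATRA, at 641, 941 and 835 against 954, 1160 and 1178, but did not pass in limma (0.46, adjusted p 0.0444), while it passed with DESeq2 (0.00475) and with edgeR's TMM scaling (0.00477). The serine proteases CTSG and ELANE held 0 and 2 reads in the DAC group of this transcript-level table and could not be tested. Such counts of a single transcript do not show that a gene is silent. Of 18 lysosomal genes 2 rose and 1 fell (16.7% called, near the 12.5% of all symbols), with a median of 0.16. The protease cathepsin D (CTSD) went from 37.8, 51.6 and 63.7 to 197, 189 and 213 (1.98), while the proton pump subunit ATP6V0D2 went from 62.7, 43.8 and 45.8 to 16.3, 14.7 and 9.89 (-1.83).

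Of 33 myeloid transcription factors 3 rose and 2 fell (15.2% called, near the 12.5% of all symbols), with a median of -0.30. The differentiation inhibitor ID1 went from 6.49, 18.5 and 13.9 to 68.7, 84.2 and 96.4 (2.68), KLF2, a zinc finger factor of quiescent leukocytes, from 81.1, 122 and 215 to 746, 896 and 692 (2.58), and CEBPB, a factor of monocytes and granulocytes, from 1298, 992 and 1469 to 2448, 2645 and 2558 (1.04; adjusted p 0.0241 with no filter on low values). GATA2, a factor of stem cells and mast cells, went from 838, 1011 and 1106 to 361, 422 and 361 (-1.36). None of the 4 overlapped. SPI1, the factor most closely tied to myeloid identity, did not pass (0.12). The MYC transcript held 5 and 7 reads in the groups and was not tested, which does not show that the gene is silent. Among chemokines and cytokines 2 of 13 rose and 2 fell (30.8% called), with a median of -0.10. The growth factor HBEGF went from 373, 587 and 548 to 1047, 1267 and 1280 (1.27) and the inflammatory cytokine IL1B from 325, 305 and 322 to 554, 620 and 604 (0.90). Hepatocyte growth factor (HGF) went from 1066, 1142 and 815 to 255, 206 and 271 (-2.04). TGFB1 fell less, from 7185, 6315 and 8381 to 4346, 4737 and 3826 (-0.76), and missed the threshold without any 1 of 6 libraries (untreated 1, DAC 4 and 6, ATRA 7, DAC + ATRA 10 and 12), with an adjusted p of up to 0.0222, and with no filter on low values (0.0973).

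**Figure D2:**
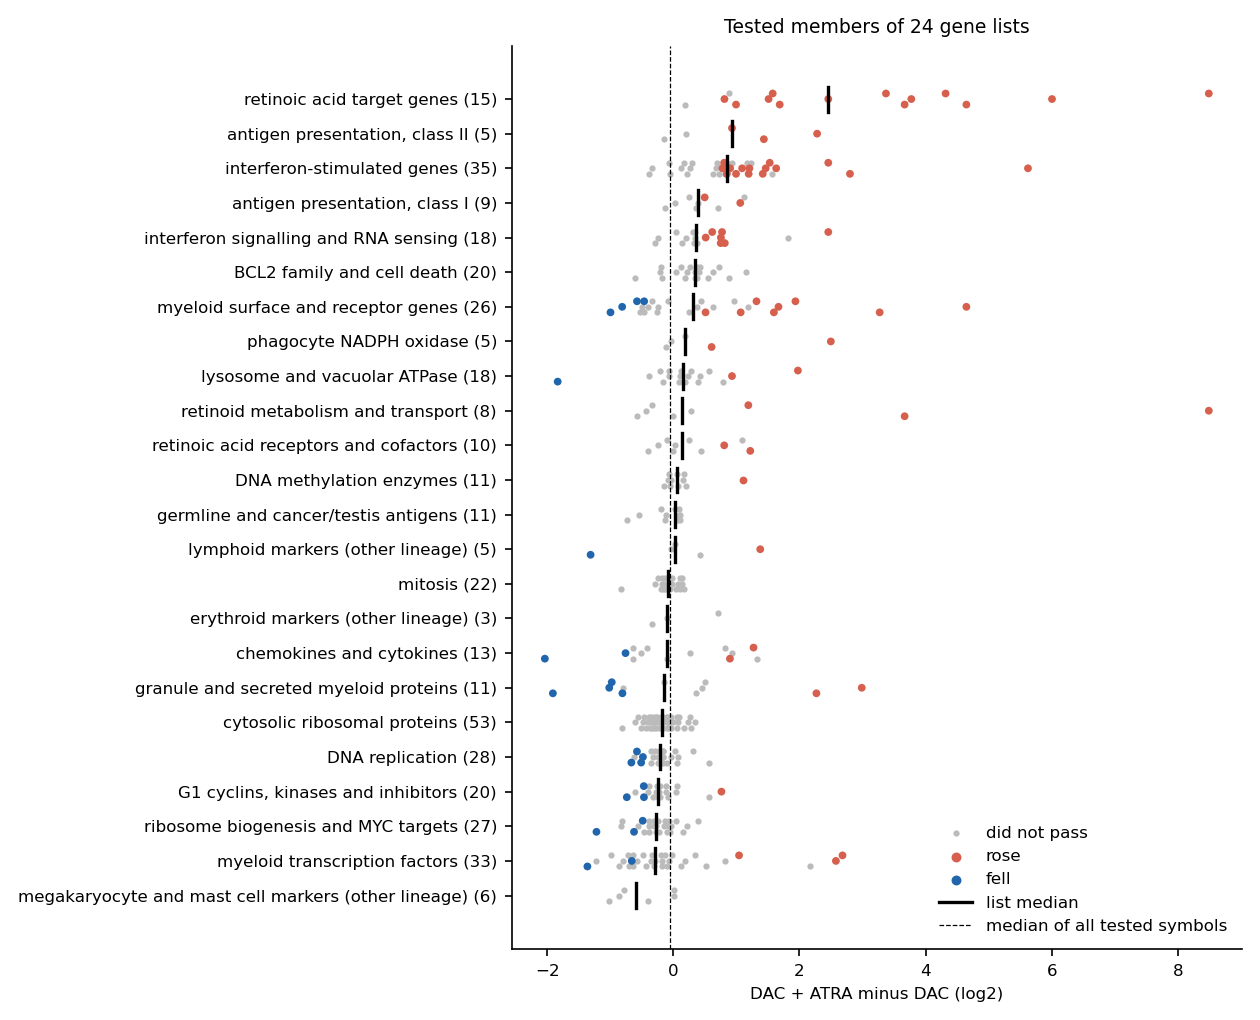
Log2 difference between DAC + ATRA and DAC (horizontal axis) of every tested member of 24 gene lists, with the number tested in parentheses; red points rose, blue points fell and gray points did not pass, black bars are list medians, and the dashed line is the median of all tested symbols at -0.05. The retinoic acid targets have the highest median, 2.46, and the megakaryocyte and mast cell markers the lowest, -0.59.

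The largest fall was that of PDGFRA, the receptor for platelet-derived growth factor, which stood at 18.4, 34.1 and 18.9 in DAC and at 1.81, 0 and 2.47 in DAC + ATRA (log2 difference -3.48), against 0 to 0.919 in untreated cells. XCL2, a chemokine with the near-identical paralog XCL1, went from 568, 542 and 645 to 68.7, 74.7 and 87.7 (-2.91), against 4.62 to 8.19 in untreated cells. The Wnt inhibitor DKK1 went from 31.3, 126 and 71.7 to 9.94, 7.37 and 8.65 (-2.80), with 0 in every untreated library. For XCL2 and DKK1 the DAC + ATRA values lay above the untreated values. NOG, which binds bone morphogenetic proteins, went from 206, 191 and 250 to 19.9, 33.7 and 29.7 (-2.94) and was thereby below its untreated values of 94.7, 121 and 103. The pattern recognition molecule PTX3 went from 476, 805 and 820 to 94.0, 119 and 145 (-2.52). FGF18 (-2.53), the extracellular matrix protein NPNT (-2.65), the calcium channel subunit CACNG4 (-2.54) and the homeobox gene DLX2 (-2.44) also fell. ZCCHC5 had a log2 difference of -2.97. VSTM2L (11.9, 37.0 and 20.9 against 8.14, 1.05 and 0; -3.05) missed the threshold without DAC library 5 or DAC + ATRA library 11 or 12 (adjusted p up to 0.0265) and when fitted without the untreated and ATRA groups. SLC35D3 (-2.49) missed it without DAC library 6 or DAC + ATRA library 10 (adjusted p up to 0.0196). With 0.1 in place of 1 added before the logarithm, PDGFRA, DKK1, NPNT, CACNG4, VSTM2L and SLC35D3 missed the threshold, as did TGFB1, CD2, CCND1 and MCM2 among the other falls and CXCR1, CD80, BPI, GBP1 and ITGB5 among the rises.

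Genes of cell division were set against the 12.5% of all symbols that passed. Of 28 tested replication genes 0 rose and 4 fell (14.3% called), with a median of -0.21. The licensing factor CDT1 went from 1955, 1445 and 1761 to 1077, 1096 and 1058 (-0.66), and the helicase component GINS2 from 2136, 1458 and 1668 to 1134, 1217 and 1137 (-0.58). Without DAC library 4 both missed the threshold, as GINS2 did without DAC + ATRA library 10, with adjusted p-values of at most 0.0124 and 0.0144. Another of the 4, MCM2 (-0.51), missed it without DAC library 4 and without any 1 of 6 others (adjusted p up to 0.0693). Of 22 mitosis genes 0 passed in limma in either direction, with 2 (9.09%, against 30.3% of all symbols) at an unadjusted p under 0.05. Their median was -0.08, and 0 passed with DESeq2 and with edgeR's TMM scaling. With libraries scaled to total reads 1 was lower. Of 20 regulators of the G1 phase 1 rose and 3 fell (20% called), with a median of -0.24. E2F2, a transcription factor of S-phase entry, went from 4276, 4543 and 4581 to 6941, 8181 and 7676 (0.76), while the kinase CDK6 went from 9924, 10360 and 8645 to 6575, 7091 and 7250 (-0.46). Both were without overlap. E2F1 (-0.47) and cyclin D1 (CCND1, -0.74) also fell. E2F1 missed the threshold without DAC library 4 or 6 or DAC + ATRA library 10 or 12 (adjusted p up to 0.0207), and CCND1 did so without any 1 of 10 libraries, all but untreated 1 and 3 (adjusted p up to 0.0396), and with at least 10 reads in every library.

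Ribosome biogenesis genes, many of them MYC targets, had 0 of 27 higher and 3 lower (11.1% called, near the 12.5% of all symbols), with a median of -0.27. IMPDH2, an enzyme of guanine nucleotide synthesis, went from 35.7, 29.2 and 38.8 to 19.9, 11.6 and 12.4 (-1.22), without overlap, and the processing factor BOP1 from 2334, 1858 and 2171 to 1342, 1480 and 1299 (-0.62). BOP1 missed the threshold without DAC library 4 or 6 or DAC + ATRA library 10 or 12 (adjusted p up to 0.0320). Of 53 cytosolic ribosomal protein genes 0 passed in limma, with 8 (15.1%) at an unadjusted p under 0.05 and a median of -0.18. With edgeR's TMM scaling 0 passed as well, with DESeq2 1 was lower, and with libraries scaled to total reads 2 were lower. Of 20 genes of the BCL2 family and cell death 0 passed in limma, with 7 (35%, near the 30.3% of all symbols) at an unadjusted p under 0.05, a median of 0.35, and 2 higher with DESeq2 and with edgeR's TMM scaling. BCL2 itself stood at 2231, 1574 and 1545 against 1410, 1528 and 1641 (-0.21), overlapping.

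Of 46 listed germline and cancer/testis genes, which methylation keeps silent in most tissues, 11 had enough reads to be tested. Of these 11, 0 passed in limma (0% called, against 12.5% of all symbols), DESeq2 or edgeR with TMM scaling. An unadjusted p under 0.05 was found for 1 (9.09%, against 30.3% of all symbols). A list of 11 is too small to set its 0 calls apart from the share of all symbols. The median was 0.03, which became -0.04 with TMM scaling and -0.05 with DESeq2. MAGEC2 stood at 186, 203 and 222 in DAC and at 203, 214 and 232 in DAC + ATRA, against 2.77 to 4.55 in untreated cells, and MAGEB2 at 640, 868 and 832 against 762, 877 and 829. The groups overlapped in both genes. Of 11 enzymes and readers of DNA methylation 1 rose and 0 fell (9.09% called, near the 12.5% of all symbols), with a median of 0.06. This was the de novo methyltransferase DNMT3A, which went from 1399, 1166 and 1273 to 2832, 2737 and 2714 (log2 difference 1.11, adjusted p 1.54e-08), without overlap.

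Markers of other lineages form lists too small to set against the 12.5% of all symbols that passed. Of 5 lymphoid genes 1 rose and 1 fell, with a median of 0.03. CD79A, a chain of the B-cell receptor, went from 523, 514 and 501 to 1299, 1322 and 1385 (1.38). CD2, an adhesion molecule of T cells, went from 292, 368 and 385 to 127, 175 and 121 (-1.31), against 2.76 to 10.2 in untreated cells, and missed the threshold without any 1 of 5 libraries (DAC 4, 5 and 6, DAC + ATRA 10 and 12; adjusted p up to 0.0291). Of 6 megakaryocyte and mast cell genes 0 passed in limma, with 3 at an unadjusted p under 0.05 and a median of -0.59, and 1 was lower both with DESeq2 and with edgeR's TMM scaling. The platelet glycoprotein GP9 had the largest difference of the 6, at 240, 358 and 361 against 163, 161 and 141 (-1.02, adjusted p 0.0109). Of 3 erythroid genes 0 passed in limma, DESeq2 or edgeR with TMM scaling, 0 had an unadjusted p under 0.05, and the median was -0.09. The part of other lineages in the results was not tested.

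Outside the protein-coding set 684 of 10357 tested transcripts (6.6%) passed, 456 higher (4.4%) and 228 lower (2.2%). Of these, 302 belonged to genes annotated as long non-coding (of 3043 tested; 181 higher, 121 lower) and 329 were other transcripts of protein-coding genes (of 6779; 239 higher, 90 lower). The 228 lower calls became 125 without DAC + ATRA library 12 and 271 without ATRA library 9. With at least 10 reads in every library 214 were higher and 174 lower. The non-coding RNA RP5-1198O20.4 went from 0, 2.92 and 4.98 to 191, 155 and 182 (log2 difference 5.94), RP11-348J12.5 from 1.08, 0.974 and 0 to 71.4, 71.6 and 90.2 (5.61), and RP11-410D17.2 from 0, 0 and 0.996 to 47.9, 36.8 and 61.8 (5.28). The last 2 rest on ratios of 113 (31.0 to 943) and 142 (25.1 to 5663) by counting. RP11-348J12.5 (chr10:93071972-93073466, plus strand) ends shortly before the CYP26A1 window printed above, on the same strand. Whether it rose apart from CYP26A1 was not tested. LINC00261, a long non-coding RNA near the endoderm factor FOXA2, fell from 1216, 2090 and 1699 to 193, 252 and 211 (-2.90), against 16.4 to 23.1 in untreated cells, and IL12A-AS1, antisense to an interleukin 12 chain, went from 177, 156 and 190 to 25.3, 46.3 and 22.2 (-2.51). The libraries were strand-specific according to the article, but the strand setting of the counting is not stated, so reads of antisense transcripts may include those of the opposite strand.

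The same dose of ATRA without DAC, tested in the same fit, gave 824 of 9016 protein-coding transcripts past the threshold (9.14%), 583 higher (6.47%) and 241 lower (2.67%). The excess of rises depended on the scaling, with 554 higher and 460 lower in limma when libraries were scaled to total reads, and in edgeR 590 and 372 with TMM but 551 and 230 with DESeq2 size factors. DESeq2, another test, gave 615 and 383. Single libraries moved these counts too, to 489 and 137 without untreated library 2 and to 807 and 217 without ATRA library 9. The responses with and without DAC share no library. Both passed in 448 transcripts, and in 444 of these the direction was the same, 43.4% of those called with DAC and 53.9% of those called without. Of the 444, 319 rose and 125 fell, and the 319 had a median log2 difference of 1.21 with DAC and 1.44 without. Among all 1022 called with DAC, 85.5% had the same sign without it, against 62.1% of all tested transcripts. The 4 with opposite directions, named after their values were seen, were CAMK2N2, COL1A1, IQSEC3 and P2RY12. P2RY12, a receptor for ADP, had means of 7.97 ± 2.99 in untreated and 25.5 ± 4.55 in ATRA (log2 difference 1.62), but 135 ± 25.2 in DAC and 49.6 ± 7.22 in DAC + ATRA (-1.42; SD, n = 3 each). COL1A1, a chain of type I collagen, rose without DAC (1.33) and fell with it (-0.73), as did the kinase inhibitor CAMK2N2 (0.75 and -0.62) and IQSEC3 (0.75 and -0.79).

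**Figure D3:**
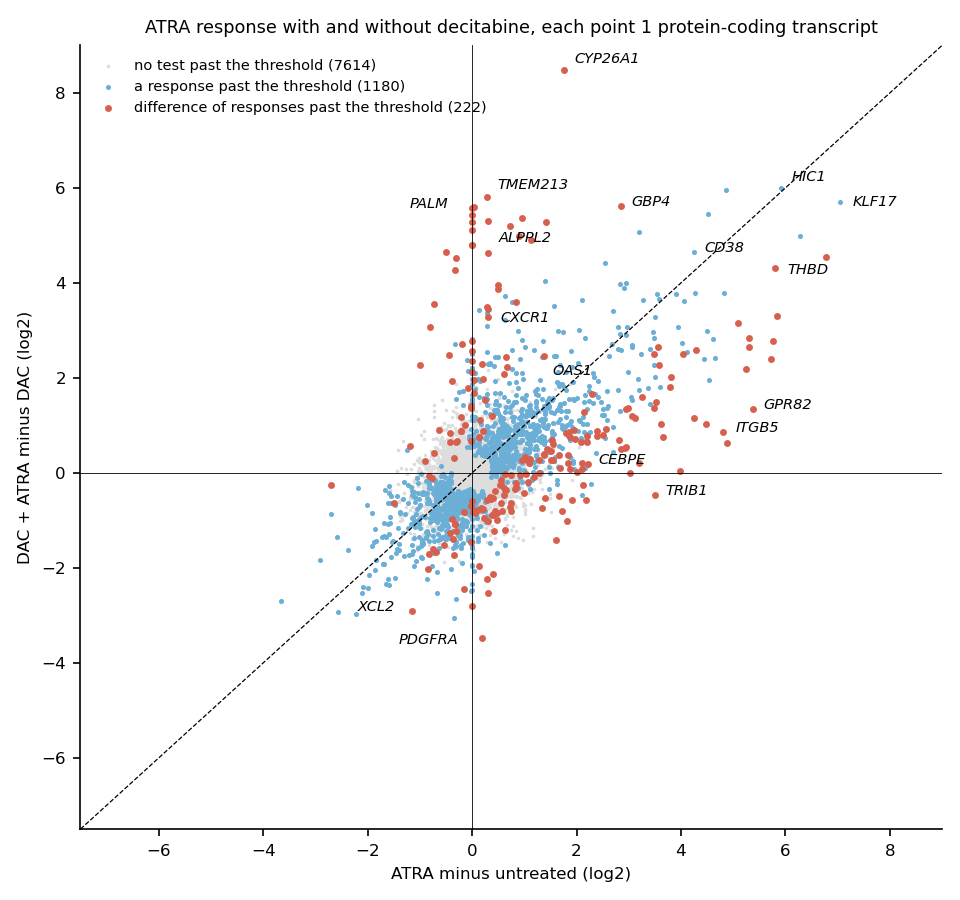
Log2 difference of DAC + ATRA against DAC (vertical axis) and of ATRA against untreated (horizontal axis) for each of 9016 protein-coding transcripts; red marks the 222 whose responses differ by the interaction test, blue those with a response past the threshold only, and the dashed line marks equal responses. CYP26A1 lies at 8.49 with DAC and 1.76 without, HIC1 near the line at 6.0 and 5.91, and TRIB1 at -0.47 and 3.5.

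A direct test of the difference between the responses, the interaction, passed for 222 transcripts (2.46%), 71 (0.787%) with the more positive response in DAC-exposed cells and 151 (1.67%) with the more negative one. This count depended on single libraries: it was 483 without ATRA library 9 and between 148 and 483 over all libraries left out in turn. Of 574 transcripts called with DAC and not without it, 98 (17.1%) passed, so for the rest a difference from the response without DAC was not shown. Of the 71 positive interactions 63 belonged to transcripts that rose with ATRA on top of DAC. Of the 151 negative ones 104 had risen with ATRA without DAC, and 48 fell with ATRA on top of DAC. The interaction is computed from both responses, so these overlaps are partly built in. Among the positive interactions, C11orf86 had 0 reads in all untreated and ATRA libraries. It went from 1.08, 6.82 and 4.98 in DAC to 154, 194 and 187 in DAC + ATRA, and only the latter carried it past the filter. Its interaction (5.28 on the log2 scale) restates this rise, since without reads the response without DAC is 0 by construction. This interaction did not pass with DESeq2 (adjusted p 0.0276), with edgeR's TMM scaling (0.9999) or with 0.1 added before the logarithm (0.0180). CYP26A1 had 6.34, 4.55 and 0.832 in the ATRA libraries (interaction 6.73), which held with DESeq2 (adjusted p 0.00370) but not with edgeR's TMM scaling (0.240) or 0.1 added (0.0209). OAS1 rose in both settings, by 2.46 with DAC and 1.37 without, and the difference missed the threshold without DAC + ATRA library 12 (adjusted p 0.0132).

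For other genes the DAC values were already high and ATRA added less. CEBPE rose from 276, 266 and 227 in untreated to 1329, 1333 and 951 in ATRA (log2 difference 2.22), against the overlapping values with DAC given above. TRIB1, a pseudokinase that controls the degradation of CEBPA, rose from 36.8, 34.6 and 29.6 to 423, 407 and 345 without DAC (3.5), while with DAC it stood at 698, 850 and 820 and at 535, 601 and 571 with ATRA added (-0.47, adjusted p 0.0125, passing without ATRA library 9 at 0.00524, with DESeq2 at 0.000254 and with edgeR's TMM scaling at 0.00239). The integrin chain ITGB5 rose from 1.84, 2.73 and 5.54 to 112, 105 and 126 without DAC (4.80) and from 153, 191 and 178 to 288, 309 and 361 with it (0.87). The last change lies at the threshold (adjusted p 0.00999) and missed it without any 1 of 9 libraries, with an adjusted p of up to 0.0597, and with 2 other scalings, total reads and size factors from protein-coding transcripts. S100A9 rose by 3.57 without DAC and by 2.27 with it, yet the highest counts of both genes were those of the DAC + ATRA libraries. Such a smaller log2 response from a higher start differs from a lower final level, and the plot of single genes by group shows both kinds.

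**Figure D4:**
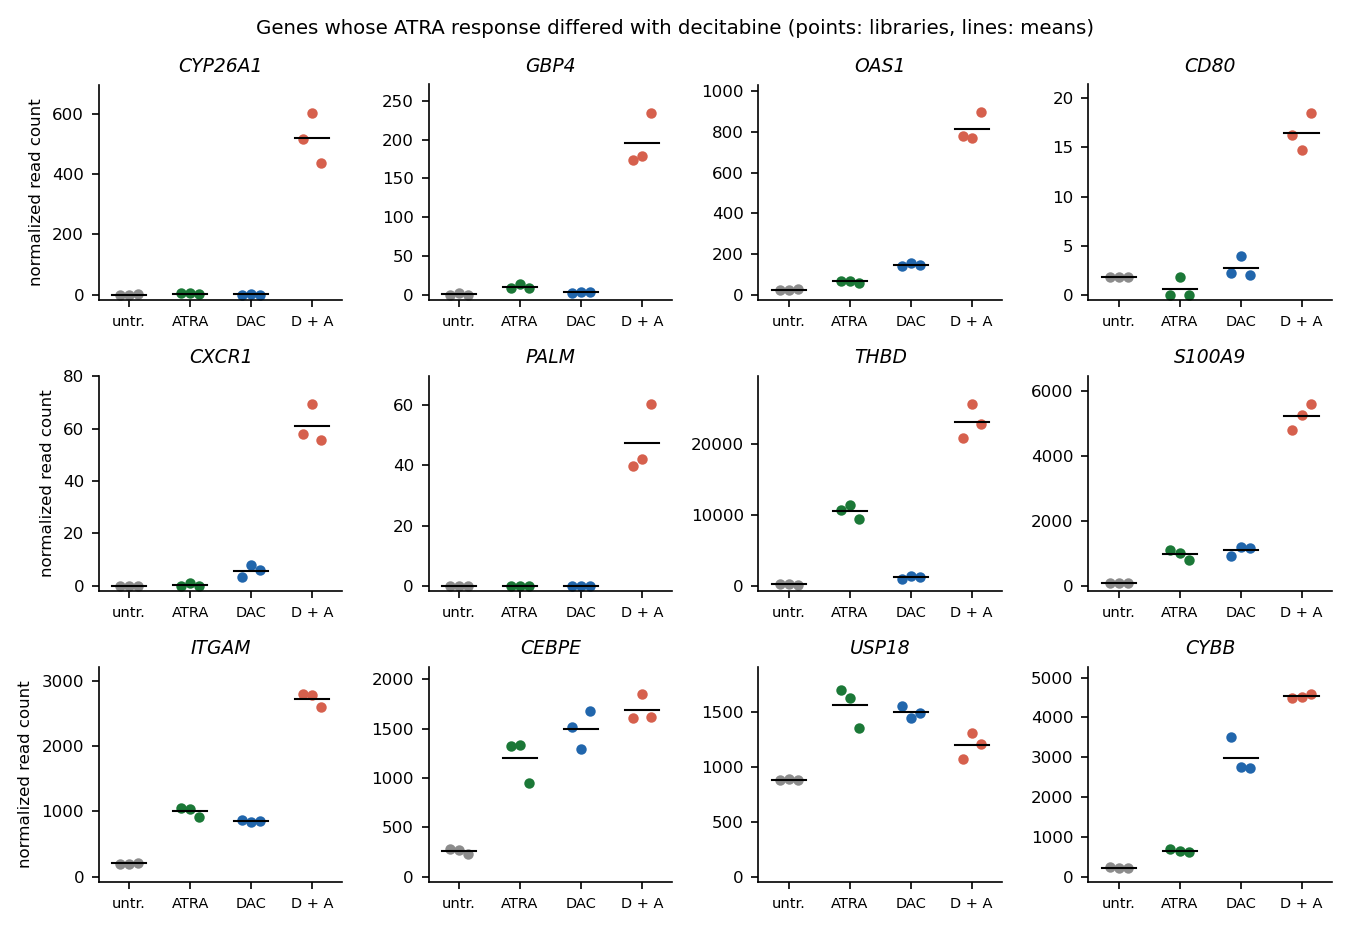
Normalized read counts of 12 genes past the interaction test, each with its own linear vertical axis; points are libraries and lines are group means in untreated (untr.), ATRA, DAC and DAC + ATRA (D + A) cells. CYP26A1, GBP4 and PALM have their highest means in DAC + ATRA (519, 196 and 47.5), though GBP4 also rose with ATRA without DAC (log2 difference 2.85), while USP18 has its lowest mean in untreated cells and a lower mean in DAC + ATRA (1193) than in DAC (1495). The interaction of PALM restates its rise with ATRA on top of DAC.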

How the data were processed

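Total RNA depleted of ribosomal RNA was sequenced by the authors in 12 libraries, 3 each of untreated, DAC, ATRA and DAC + ATRA. The deposited signal is read counts per transcript that the authors aligned with STAR to hg38, counted with HTSeq and divided by 1 DESeq2 size factor per library. Dividing by the smallest step of each column gave whole reads for 100% of the values within 0.01 of a read, and total depth was 8042435 to 10683593 reads. Transcripts that reached a normalized count of 10 in 3 or more libraries entered limma 3.58.1 (lmFit, eBayes with trend and robust) on log2(count + 1). All 12 libraries entered each fit together, on the 4 groups. Protein-coding calls rest on a fit and Benjamini-Hochberg adjustment over the 9016 protein-coding transcripts tested. Calls outside that set rest on a fit and adjustment over all 19373 transcripts tested. The plan named edgeR for raw counts and limma for normalized values, and the values are normalized. On the recovered reads the count tests call 1314 transcripts (edgeR 4.0.16, TMM) and 1288 (DESeq2 1.42.0) for DAC + ATRA against DAC. Other alternatives were other size factors, filters, pseudocounts and thresholds, sums by symbol, and leaving out each library. R 4.3.3, Python 3.11.15, numpy 2.4.6, pandas 2.3.3, scipy 1.17.1 and matplotlib 3.10.9 were used.

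Genes were named by rule: the 12 largest and 12 smallest changes past the threshold with a mean of 1 RPM (reads scaled by depth) or more and no overlap, 14 genes the study names, the 4 largest and 4 smallest of each of 24 lists, the 6 largest and 6 smallest interactions on the same conditions, and 5 each way outside the protein-coding set; the text describes those its comparisons rest on. Members and lists were chosen with earlier results of these data known. Some lists share members, among them CYP26A1, DHRS3, CD38, CEBPE and IRF1, so their shares are not separate results. RefSeq promoters matched 76.8% of the symbols, under the 80% required, so windows of 300 bases at GENCODE 44 starts in hg38 (97.7%) were used instead, a choice made after seeing the data.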

Additional observations from a re-analysis of the deposited data

Results flagged for a closer look

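The results in this list were marked because the response to ATRA differed between cells with and without DAC in the interaction test of limma (adjusted p under 0.01); values are log2 differences of the responses, positive where the response was more positive with DAC. Positive were CYP26A1 (6.73), PALM (5.57), SEC14L5 (5.56), TMEM213 (5.51), ALPP (5.43), C11orf86 (5.28), ALPPL2 (4.98), LYPD2 (4.41), CD80 (3.29), CXCR1 (2.96), GBP4 (2.77), CDKN2B (1.75), OAS1 (1.08) and E2F2 (0.64). Negative were GPR82 (-4.05), TRIB1 (-3.97), ITGB5 (-3.93), PDGFRA (-3.67), KIAA1644 (-3.45), ADAM19 (-3.33), CACNG4 (-2.85), DKK1 (-2.80), DLX2 (-2.28), CEBPE (-2.03), XCL2 (-1.76), THBD (-1.49), S100A9 (-1.30), USP18 (-1.14), IL1B (-1.06), CYBB (-0.94), IL7R (-0.92), ERV3-1 (-0.92) and ITGAM (-0.63). CCR2 had a more negative difference than any of these (-4.25, adjusted p 3.50e-07), but its DAC and DAC + ATRA values overlap, so the rule for the largest interactions does not name it. For C11orf86, PALM, ALPP and DKK1 the response without DAC is 0, so their values restate the rises of the first named and the fall of DKK1 with DAC.

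Untreated cells are labelled 96 h and all others 72 h, while the article gives 72 h throughout. If the labels hold, hours and the absence of treatment cannot be told apart in these differences. Leaving out single libraries removed the call of ITGAM in 11 of 12 fits (adjusted p up to 0.0373), of DKK1 in 10 (up to 0.0225), of GBP4 in 9 (up to 0.0373) and of CDKN2B, E2F2, IL1B and IL7R in 8 each. PDGFRA lost it in 5 fits, CACNG4 in 3, XCL2 in 2 and OAS1 in 1. In both edgeR fits and with 0.1 added before the logarithm the interactions of CYP26A1, PALM, SEC14L5, TMEM213, ALPP, C11orf86, ALPPL2, LYPD2, CD80, CXCR1, GBP4, PDGFRA, CACNG4, DKK1 and XCL2 did not pass. DESeq2 kept CYP26A1 and did not keep C11orf86 (adjusted p 0.0276), GBP4 (0.112) or XCL2 (0.203), and it gave the other 11 no adjusted p. CDKN2B did not pass in either edgeR fit. With no filter on low values THBD (adjusted p 0.0142), KIAA1644 (0.0186), ITGAM (0.0238) and DKK1 (0.0145) missed the threshold, and with 0.1 added ADAM19 (0.0104) and IL7R (0.0132) did so. GBP4 also missed the threshold with libraries scaled to total reads and with size factors from protein-coding transcripts.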

How the results depend on the processing

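The count of protein-coding transcripts past the threshold for DAC + ATRA against DAC, 1022, lay between 751 (without DAC + ATRA library 10) and 1255 (without ATRA library 9) over the 12 fits that leave out 1 library, was 1618 at an adjusted p under 0.05 and 520 with a log2 change of at least 1; both follow from the threshold itself. Outside the protein-coding set the range was 459 to 775 around 684, and 388 with at least 10 reads in every library, where fewer transcripts are tested. ATRA against untreated gave 622 to 1024 over the libraries left out and 576 (420 higher, 156 lower) when fitted without the other 2 groups. The interaction count of 222 was 341 with DESeq2, 137 with at least 10 reads in every library and 148 to 483 over the libraries left out, 483 without ATRA library 9; apart from the fewer transcripts tested, the cause was not tested. Where 1 library is left out, a group of 2 is assumed to vary like the others. Of 128 named results past the threshold, 73 kept their call in every alternative, and in 2673 comparisons 252 lost the call and 0 changed direction. Of 33 named interactions 19 held with DESeq2, which gave 11 others no adjusted p, and 17 with edgeR's TMM scaling, and with a pseudocount of 0.1 75 of 95 named changes held. Of 18 named results short of the threshold, 43 of 391 comparisons passed it, among them comparisons of LYZ, IL7R, ALDH1A1, STRA8, USP18, BST2, TRIB1 and KIAA1644, and 5 values changed sign: MAVS (-0.12 without DAC library 5, -0.01 without DAC + ATRA library 11, up to 0.15), SPI1 (-0.00280 without DAC library 5, up to 0.228), CD4 (-0.0217 without DAC library 5, up to 0.235) and ITGB2 when transcripts were summed by gene symbol (0.16); the cause was not tested. No paired analysis was possible because the columns carry no replicate numbers that link the groups. Depth limits genes with 0 reads in a group, where a fold change has only a lower bound, and genes with 1 to 3, where its counting interval is wide; the technical triplicates of 1 line limit what the p-values cover.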
